A study of Homo sapiens with 4 samples.

Results

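The 9 canonical interferon-stimulated genes IFI6, IFI27, ISG15, IFIT1, IFIT2, IFIT3, MX1, OAS1 and IRF1 were followed in OMM2.3, an established human uveal melanoma cell line. They were taken by gene name, and each name matched 1 of the 58735 genes in the deposited tables. RNA was sequenced in 4 libraries, 1 per group, of cells labelled control, CCCP, DHA and the combination of the 2 compounds. All groups grew in the same medium with 10% heat-inactivated fetal bovine serum, penicillin and streptomycin. CCCP, carbonyl cyanide m-chlorophenyl hydrazone, carries protons across the inner mitochondrial membrane and collapses its potential. What DHA stands for, the doses, the times and the vehicle of the control cells were not stated in the labels. OMM2.3 is a single line in culture, without the immune and stromal cells of a tumour.

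Interferons are secreted proteins that cells release when they sense viral or misplaced nucleic acid. Type I interferons act through the receptor chains IFNAR1 and IFNAR2, the kinases JAK1 and TYK2, and a complex with STAT2 and IRF9 that binds the interferon-stimulated response element (ISRE) in promoters. Interferon gamma acts through IFNGR1 and IFNGR2 and, in promoters, through the gamma-activated site (GAS). DNA or RNA that leaves mitochondria can be read by the same sensors.

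Expression is given as FPKM, the number of fragments per exon length and library depth. The length here is that of all annotated exons of a gene, such as 865 bases for IFI6 and 7799 for IRF1. Which of these exons the cells use was not tested. Ranks between genes and the 1 FPKM rule therefore hold for this length only. Of the 9 genes, 6 reached 1 FPKM in at least 1 library (IFI6, ISG15, IFIT1, IFIT2, IFIT3 and IRF1) and are called measured here, as are 13678 genes in all. IFI27, MX1 and OAS1 stayed under 1 FPKM in all 4 libraries. A ratio between 2 libraries has no replicate check, and no p-value is given for it. The interval in parentheses after a level or a ratio is an exact 95% interval on reads recovered from the FPKM values, and covers counting error only.

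The promoters are shown because they carry the elements through which interferon acts on these genes. RefSeq promoter windows on GRCh38.p14, from 250 bases before to 50 bases after a start site, were found for 8 of the 9 genes, with none for IFIT2. The ISRE was searched as GAAA, any 2 bases and GAAA, and the GAS as TTCNNNGAA, on both strands and with overlapping matches kept. Printed are positions -180 to -61 from the first listed start site, 5′ to 3′ on the strand of the gene, with matches in capitals. The windows lie at chr1:27672253-27672372 (minus strand) for IFI6, chr1:1013317-1013436 (plus strand) for ISG15, chr10:89392443-89392562 (plus strand) for IFIT1, chr10:89327817-89327936 (plus strand) for IFIT3, chr14:94110556-94110675 (plus strand) for IFI27, chr12:112906782-112906901 (plus strand) for OAS1 and chr5:132490834-132490953 (minus strand) for IRF1.
IFI6: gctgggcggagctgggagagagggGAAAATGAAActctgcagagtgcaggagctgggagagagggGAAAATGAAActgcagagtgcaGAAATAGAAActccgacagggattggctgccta
ISG15: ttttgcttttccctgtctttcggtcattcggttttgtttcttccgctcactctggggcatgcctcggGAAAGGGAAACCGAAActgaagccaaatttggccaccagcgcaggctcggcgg
IFIT1: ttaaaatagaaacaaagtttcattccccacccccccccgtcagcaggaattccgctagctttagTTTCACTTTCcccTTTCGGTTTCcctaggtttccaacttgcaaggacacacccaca
IFIT3: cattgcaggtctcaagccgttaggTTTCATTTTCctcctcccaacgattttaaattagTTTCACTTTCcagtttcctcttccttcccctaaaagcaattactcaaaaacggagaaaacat
IFI27: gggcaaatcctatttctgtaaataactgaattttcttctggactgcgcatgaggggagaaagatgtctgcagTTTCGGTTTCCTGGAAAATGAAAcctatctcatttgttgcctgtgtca
OAS1: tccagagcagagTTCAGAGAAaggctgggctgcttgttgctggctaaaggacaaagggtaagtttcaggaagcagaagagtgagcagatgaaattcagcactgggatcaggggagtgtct
IRF1: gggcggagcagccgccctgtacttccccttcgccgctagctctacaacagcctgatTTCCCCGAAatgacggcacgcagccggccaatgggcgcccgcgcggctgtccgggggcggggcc

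The IFI6 window held 3 ISRE matches, and those of ISG15, IFIT1, IFIT3 and IFI27 held 2 each, which overlap each other in ISG15. In IFI27 a GAS match bridges the ISRE matches, so the capitals run together. The capitals in IRF1 and in OAS1 are 1 GAS match each, and neither window held an ISRE match. MX1 held its match after the start site, in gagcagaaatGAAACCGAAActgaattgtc at chr21:41420559-41420588 (plus strand). That match belongs to the first of 3 listed start sites of MX1. Another of them held an ISRE match upstream, at -196 to -187, and a GAS match at -189 to -181, and the remaining start site held neither. Over every listed start site, 6 of the 8 genes had an ISRE match, as did 4.38% of the 27305 genes with RefSeq promoter windows. A GAS match was found in 4 of the 8 genes and in 9.38% of all genes. Counted by window, 3.57% of the 35116 windows hold an ISRE match, 0.259% hold 2 or more, and 7.66% hold a GAS match. A match describes letters and not binding.

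**Figure D1:**
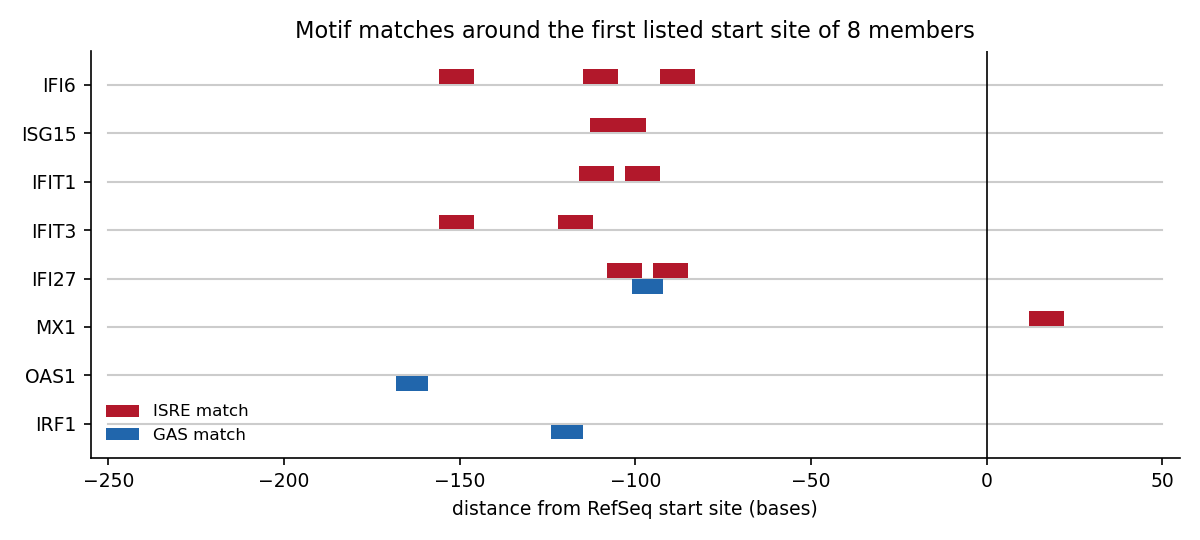
Positions of ISRE and GAS matches in the 300-base window around the first listed RefSeq start site of 8 genes, with distance from the start site in bases on the x axis. The ISRE matches of 5 genes lie upstream, that of MX1 starts at position 12, and IRF1 and OAS1 show a GAS match alone.

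Before the members, the libraries and the cell type were checked. Reads summed to 16900411 to 18937286 per library, with 3.85 to 5.18% in mitochondrially encoded genes. Of 9 melanocyte lineage markers, MITF, PMEL and GPNMB reached 1 FPKM, and TYR and PAX3 had no reads. MLANA, TYRP1, DCT and SOX10 stayed under 1 FPKM in all 4 libraries. The summed level was 29.8 to 45.5 FPKM, lowest under the combination, and most of it was GPNMB, at 23.3 to 34.9 FPKM. Of 9 leukocyte markers, CSF1R alone reached 1 FPKM, at 1.25, 0.418, 1.01 and 0.338 FPKM in control, CCCP, DHA and combination. The leukocyte list summed to 0.344 to 1.35 FPKM, and CD3E, LYZ and CLEC4C, named after their values were seen, were at 0 throughout. In bulk RNA, fewer expressing cells and less RNA per cell cannot be told apart.

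In control cells IFI6 had the highest level of the 9 genes at 9.5 FPKM (8.09 to 11.1), above 69.6% of the 13678 measured genes. ISG15 followed at 7.64 (6.43 to 9.02) and IFIT3 at 6.42 FPKM (5.75 to 7.15). Counting intervals overlapped between IFI6 and ISG15 and between ISG15 and IFIT3, so these neighbours are not ordered beyond counting error. Below them came IFIT1 at 3.64 (3.26 to 4.06), IFIT2 at 2.27 (1.95 to 2.62) and IRF1 at 1.51 FPKM (1.33 to 1.72), with no overlap between neighbours. IFI27 and MX1 had 13 reads each and OAS1 none.

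IFI6 and IFI27 encode small hydrophobic membrane proteins of 1 family, and both were higher under CCCP than in control and lower under the combination than under CCCP. IFI6 (ENSG00000126709, chromosome 1, 27666061 to 27672218 on GRCh38) stood at 9.5 FPKM in control cells, 15.0 under CCCP, 9.39 under DHA and 4.89 under the combination. It was 1.58-fold (1.28 to 1.95) higher with CCCP, 1.94-fold (1.47 to 2.60) lower with the combination and had a ratio of 0.988 (0.782 to 1.25) with DHA. The combination was 3.07-fold (2.35 to 4.06) lower than CCCP alone and 1.92-fold (1.44 to 2.58) lower than DHA alone. DHA thus went with little difference in IFI6 on its own and with the largest difference of any measured member on top of CCCP. IFI27 (ENSG00000165949, chromosome 14, 94104836 to 94116698) had 13, 28, 9 and 7 reads in the same order of libraries. It was 2.51-fold (1.26 to 5.28) higher with CCCP, and the combination was 4.13-fold (1.76 to 11.2) lower than CCCP. Against control and against DHA its combination intervals included 1, at 0.607 (0.205 to 1.64) and 0.777 (0.246 to 2.34).

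ISG15 encodes a ubiquitin-like protein that is joined to other proteins and also secreted, and its level was lowest under DHA. ISG15 (ENSG00000187608, chromosome 1, 1001138 to 1014540) stood at 7.64 FPKM in control cells, 7.38 under CCCP, 4.13 under DHA and 5.42 under the combination. It was 1.85-fold (1.37 to 2.51) lower with DHA and 1.41-fold (1.07 to 1.86) lower with the combination. With CCCP it had a ratio of 0.965 (0.748 to 1.24). The 2 libraries with DHA were the 2 lowest. Against DHA alone the combination had a ratio of 1.31 (0.944 to 1.83).

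The IFIT genes encode RNA-binding proteins that hold back translation of foreign RNA. Of the 3 members, IFIT1 stood apart with the combination, while the ratio intervals of IFIT2 and IFIT3 overlapped in every comparison. IFIT1 (ENSG00000185745, chromosome 10, 89392546 to 89406486), which recognizes RNA without host cap methylation, stood at 3.64 FPKM in control cells, 2.94 under CCCP, 2.75 under DHA and 1.59 under the combination. It was 1.24-fold (1.04 to 1.47) lower with CCCP, 1.32-fold (1.11 to 1.58) lower with DHA and 2.28-fold (1.85 to 2.83) lower with the combination. The combination lay 1.85-fold (1.48 to 2.31) lower than CCCP and 1.73-fold (1.38 to 2.17) lower than DHA, so IFIT1 was lowest where both compounds were present. IFIT2 (ENSG00000119922, chromosome 10, 89283694 to 89309276) stood at 2.27 FPKM in control cells, 1.69 under CCCP, 2.29 under DHA and 1.88 under the combination. It was 1.34-fold (1.05 to 1.71) lower with CCCP and its other 4 intervals included 1. IFIT3 (ENSG00000119917, chromosome 10, 89327894 to 89340971), a binding partner of IFIT1, stood at 6.42 FPKM in control cells, 4.60 under CCCP, 5.34 under DHA and 5.86 under the combination. It was 1.40-fold (1.17 to 1.67) lower with CCCP and 1.20-fold (1.02 to 1.43) lower with DHA, had a ratio of 0.912 (0.774 to 1.07) with the combination, and was 1.27-fold (1.06 to 1.54) higher in the combination than in CCCP. IFIT1 and IFIT3 were thus both lower with each compound, and with the combination IFIT1 alone of the 3 was lower beyond counting error.

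MX1 and OAS1 are antiviral effectors that were close to silent. MX1 (ENSG00000157601, chromosome 21, 41420304 to 41459214), a dynamin-like GTPase that blocks viral replication, had 13, 24, 14 and 35 reads in control, CCCP, DHA and combination. It was 2.15-fold (1.05 to 4.60) higher with CCCP and 3.04-fold (1.57 to 6.25) higher with the combination, at 0.235 FPKM. The combination was 2.50-fold (1.31 to 5.02) higher than DHA. Against CCCP the combination had a ratio of 1.41 (0.816 to 2.48), so these libraries are not ordered beyond counting error. OAS1 (ENSG00000089127, chromosome 12, 112906777 to 112933222), an oligoadenylate synthetase that activates RNase L, had 1 read in all, under the combination, where 3 reads would be worth 0.0363 FPKM.

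IRF1 encodes a transcription factor induced chiefly by interferon gamma, and it was the 1 measured member whose level was higher with the combination than in control. IRF1 (ENSG00000125347, chromosome 5, 132481609 to 132490798) stood at 1.51 FPKM in control cells, 0.998 under CCCP, 1.21 under DHA and 2.02 under the combination. It was 1.52-fold (1.22 to 1.90) lower with CCCP, 1.25-fold (1.02 to 1.54) lower with DHA and 1.33-fold (1.11 to 1.60) higher with the combination. The combination was 2.02-fold (1.64 to 2.52) higher than CCCP and 1.67-fold (1.37 to 2.04) higher than DHA. Exons of IRF1 share 1716 bases, 22% of their length, with C5orf56 on the opposite strand, and the kit in the labels does not mark strand. C5orf56 had 64, 35, 59 and 85 reads in control, CCCP, DHA and combination, against 230, 130, 163 and 272 reads for IRF1, and its part in the IRF1 values was not tested. IRF1 mRNA is also short-lived, and 11 measured short-lived transcripts had medians of -0.0018, 0.20 and 0.47 in log2 ratio to control with CCCP, DHA and combination, whose part was not tested either.

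**Figure D2:**
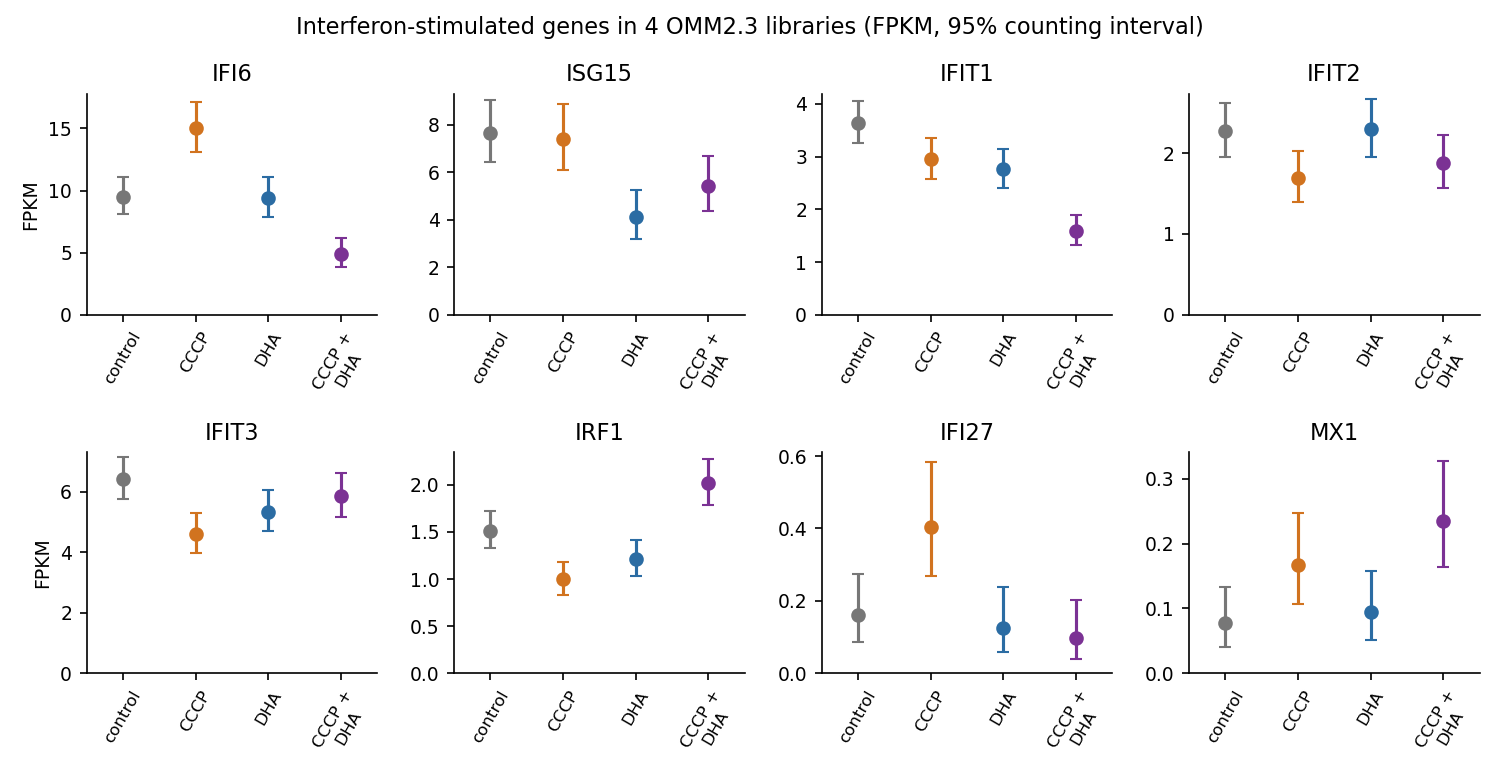
FPKM (y axis, linear from 0, own scale per panel) of 8 genes in the 4 libraries, with exact 95% counting intervals as bars. IFI6 is highest with CCCP and lowest with the combination, IFIT1 is lowest and IRF1 highest with the combination, and the intervals of IFI27 and MX1 are wide.

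The 6 measured members were then read against all 13678 measured genes, on log2(FPKM + 0.5). CCCP against control asks what the uncoupler alone did. None of the 6 was at least 2-fold different (5.53% of all genes were), and 5 of 6 counting intervals excluded 1 (51.6% of all genes). IFI6 alone lay above control, 1 of 6 against 49.9% of all genes, and the median log2 ratio was -0.30 against 0 over all genes.

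DHA against control asks the same of the second compound. None of the 6 was 2-fold different (3.87% of all genes), 4 of 6 intervals excluded 1 (35.3%), and 1 of 6 lay above control (49.9%), with a median of -0.24 against 0. The gene above control was IFIT2 at 0.01, which turned to the lower side when libraries were rescaled to equal totals. For the combination against control, none of 6 was 2-fold different (9.96%), 4 of 6 intervals excluded 1 (60.2%) and 1 of 6, IRF1, lay above (50.7%). The median was -0.34 against 0.01 over all genes. IFIT1 lay at -0.98, just inside 2-fold, and passed it at -1.14 with a pseudocount of 0.1, at -1.01 with equal totals and at -1.19 without a pseudocount.

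The combination against CCCP asks what DHA added to CCCP. Here 1 of 6, IFI6, was at least 2-fold different (8.4% of all genes), in the lower direction (4.94%). IRF1 lay at 0.75 on the higher side and passed 2-fold at 1.02 without a pseudocount, which makes 2 of 6 in that setting. No share of all genes is given without a pseudocount, so this 2 of 6 cannot be set against the 8.4%. Intervals excluded 1 for 5 of 6 (56.9%), and 3 of 6 lay above CCCP (50.6%). The combination against DHA asks what CCCP added to DHA. None of 6 was 2-fold different (6.9%), 3 of 6 intervals excluded 1 (53.2%), and 3 of 6 lay above DHA (49.8%). The 3 comparisons with control share that library, so their values are not independent of each other.

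**Figure D3:**
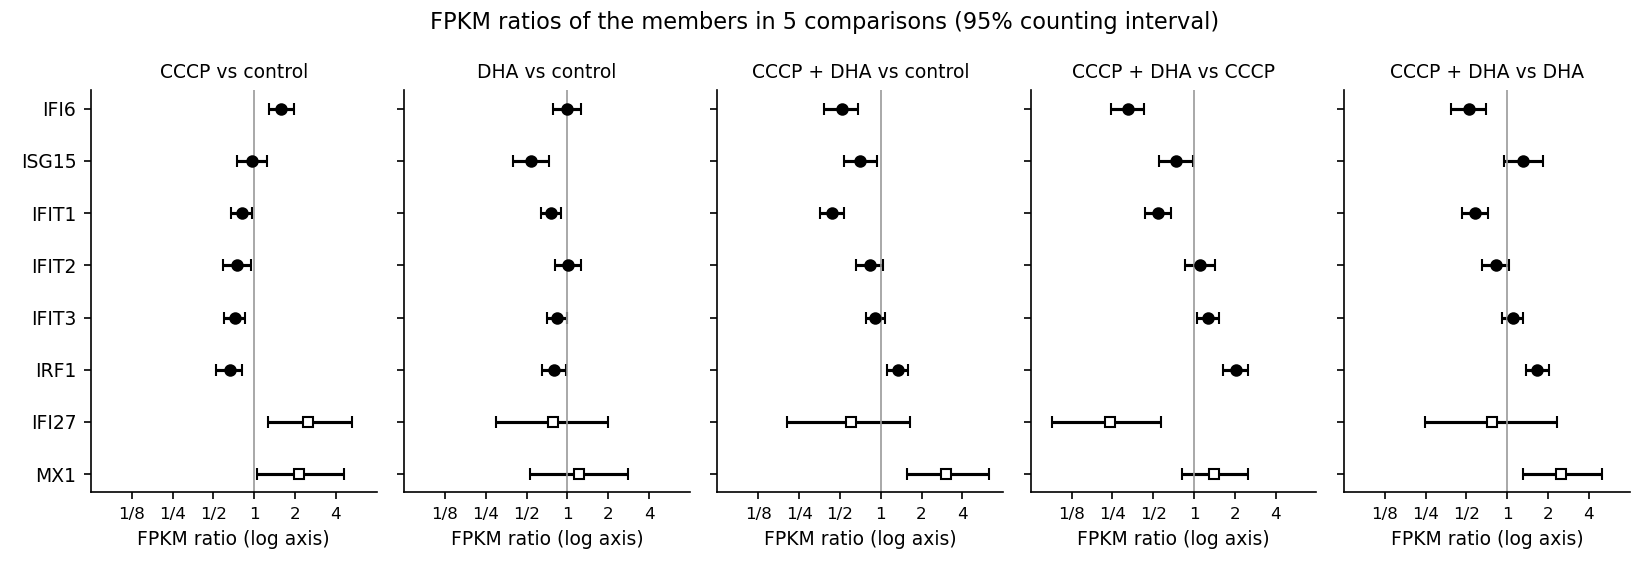
FPKM ratios (x axis, log scale) of 8 genes in the 5 comparisons, with exact 95% counting intervals as bars and open squares for IFI27 and MX1, which stayed under 1 FPKM. IFI6 lies at 1.58 with CCCP and at 0.326 where DHA is added to CCCP, and IRF1 lies at 0.659 and at 2.02 in the same comparisons.

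The combination was also set against the sum of the separate log2 ratios, as a description. IFI6 had a departure of -1.51, and it was the 1 of 6 that departed by at least 2-fold, against 8.18% of all genes. IRF1 departed by 0.99, just inside 2-fold. It passed 2-fold at 1.25 with a pseudocount of 0.1, at 1.12 with equal totals and at 1.34 without a pseudocount. That makes 2 of 6 in those settings. No share of all genes is given for departures in those settings, so this 2 of 6 cannot be set against the 8.18%. IFIT3 departed by 0.56 and ISG15 by 0.40. IFIT2 departed by 0.10 and IFIT1 by -0.37. The members thus departed in both directions.

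A limma-trend fit with CCCP and DHA as additive terms tested both compounds over all genes, since either is in 2 of the 4 libraries. It leaves 1 residual degree of freedom and takes departure from additivity as spread. None of the 6 members passed a Benjamini-Hochberg adjusted p of 0.05 in limma for CCCP, where 13 genes (0.095%) did, or for DHA, where 14 (0.102%) did. At an unadjusted limma p under 0.05 there was 1 of 6 for CCCP, IFIT1, against 14.5% of all genes. For DHA there were 2 of 6, ISG15 and IFIT1, against 12.1%. ISG15 had a DHA term of -0.61 (SE 0.15, limma adjusted p 0.285) and was lower in both pairs of libraries. IFIT1 had a DHA term of -0.53 (SE 0.17, limma adjusted p 0.340) and a CCCP term of -0.45 (SE 0.17, limma adjusted p 0.319), and was lower in both pairs for each. With limma-voom on recovered reads none of the 6 passed, where 5.01% of all genes did for CCCP and 3.9% for DHA. At an unadjusted p under 0.05 in limma-voom there was 1 of 6 for CCCP, against 17.4% of all genes, and 3 of 6 for DHA, against 15.5%.

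Several members lie beside relatives, and the neighbours were not alike in level. On chromosome 10 the plus strand carries IFIT2, IFIT3, IFIT1B, IFIT1 and IFIT5 between 89283694 and 89421001. IFIT1B had 1 read in all, under CCCP. IFIT5 stood at 8.10, 6.63, 7.57 and 8.27 FPKM in control, CCCP, DHA and combination, 1.22-fold (1.08 to 1.38) lower with CCCP and with a ratio of 1.02 (0.910 to 1.15) under the combination, where IFIT1 beside it was 2.28-fold lower. The promoter window of IFIT5 held 3 ISRE matches and that of IFIT1B none. LIPA, on the opposite strand across this region at 14.7 to 16.3 FPKM, shares no exon base with IFIT1 or IFIT3 and 65 with IFIT2.

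On chromosome 12, OAS3 was expressed between OAS1 and OAS2, which had 1 read each in all. OAS3 stood at 3.93 FPKM in control cells, 2.76 under CCCP, 3.0 under DHA and 1.46 under the combination. It was 1.42-fold (1.25 to 1.62) lower with CCCP, 1.31-fold (1.16 to 1.48) lower with DHA and 2.69-fold (2.3 to 3.16) lower with the combination. OAS3 was thus lower in every treated library, as IFIT1 was. Its promoter window held 2 ISRE matches, at positions -143 to -134 and -12 to -3. On chromosome 21, MX2 had 1 read in all beside the 86 of MX1. On chromosome 14, IFI27 lies between IFI27L1 and IFI27L2. IFI27L1 stood at 2.79, 3.52, 3.41 and 1.39 FPKM in the order above and was 2.01-fold (1.46 to 2.79) lower with the combination. IFI27L2 stood at 11.2, 12.8, 12.3 and 9.41 FPKM and was 1.19-fold (1.01 to 1.40) lower with it.

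**Figure D4:**
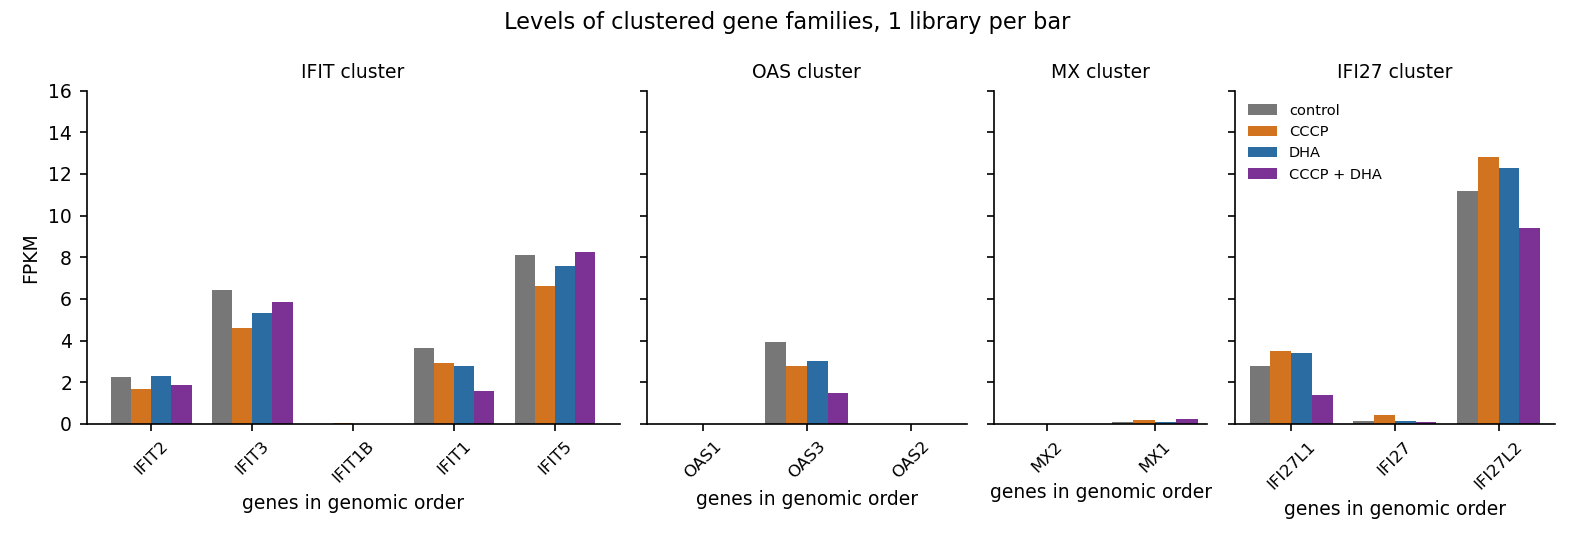
FPKM (y axis, from 0) of 4 clustered gene families in genomic order, with 1 bar per library. IFIT1B, OAS1, OAS2 and MX2, with 1 read each over the 4 libraries, show no visible bar, next to IFIT5 at 8.10 and OAS3 at 3.93 FPKM in control.

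The rest of the pathway was taken from lists by role. Of 11 interferon ligands, 8 had no read in any library, among them IFNB1 and IFNG, where 3 reads would be worth at most 0.244 FPKM. IFNE, an interferon known for constitutive expression in reproductive epithelium, was the 1 ligand to reach 1 FPKM. It stood at 4.25, 4.38, 3.82 and 4.16 FPKM in control, CCCP, DHA and combination, and its 3 intervals against control included 1. IFNA1 had 3 reads in all and IFNK 1.

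Of 6 receptor chains, 4 were measured. IFNAR1 stood at 5.40 FPKM in control cells, 4.26 under CCCP, 6.06 under DHA and 6.58 under the combination. It was 1.27-fold (1.12 to 1.43) lower with CCCP and 1.22-fold (1.10 to 1.36) higher with the combination. IFNGR1 was 1.47-fold (1.33 to 1.63) higher with the combination, from 10.7 FPKM in control. IFNAR2, at 0.156 FPKM in control, and IL10RB, at 0.147, are uncertain, because 83.3% and 38.1% of their exon bases are shared with other genes and how shared reads were counted is not given in the sources used here.

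Of 8 transducers, 7 were measured and none was 2-fold different from control on log2(FPKM + 0.5). Of all genes 5.53%, 3.87% and 9.96% were, with CCCP, DHA and combination. JAK2, a kinase of the interferon gamma receptor, stood at 1.07 FPKM in control cells, 1.63 under CCCP, 1.11 under DHA and 2.40 under the combination. It was 2.25-fold (1.81 to 2.80) higher with the combination. JAK1 was 1.32-fold (1.27 to 1.38) higher with it. STAT2 was 1.23-fold (1.14 to 1.33) higher with CCCP and had an interval that included 1 with the combination. IRF9, the DNA-binding partner of STAT2, was at 0.731 FPKM in control and shares 48.4% of its exon bases with AL136295.5.

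Of 12 nucleic acid sensing genes, 9 were measured. CGAS, the sensor of cytosolic DNA, had 1 read in control, 1 in the combination and none elsewhere. TMEM173 (STING), its adaptor, stood at 5.94 FPKM in control cells, 5.67 under CCCP, 8.74 under DHA and 10.0 under the combination. It was 1.47-fold (1.30 to 1.67) higher with DHA and 1.69-fold (1.5 to 1.91) higher with the combination. TRIM25, a ubiquitin ligase that acts with the RNA sensor RIG-I, stood at 10.3 FPKM in control cells, 11.3 under CCCP, 15.1 under DHA and 33.1 under the combination. It was 3.21-fold (3.04 to 3.38) higher with the combination. TRIM25 was the 1 of 9 sensing genes past 2-fold there, against 9.96% of all genes. DDX58, which encodes RIG-I, ranged from 1.81 to 2.44 FPKM. Of 8 feedback inhibitors, 6 were measured and none was 2-fold different from control. The shares of all genes were 5.53%, 3.87% and 9.96% with CCCP, DHA and combination. PTPN2, a phosphatase of JAK and STAT proteins, was 1.66-fold (1.47 to 1.88) higher with the combination. USP18, which removes ISG15 from proteins, ranged from 0.218 to 0.386 FPKM.

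Of 49 other genes induced by type I interferon, 35 were measured, and RSAD2, XAF1 and CMPK2, named after their values were seen, had no read. On log2(FPKM + 0.5) none of the 35 was 2-fold different with CCCP (5.53% of all genes were) or with DHA (3.87%). With the combination 1, OAS3, was 2-fold lower (5.44% of all genes). The 35 genes had median log2 ratios of -0.03, -0.06 and 0.03 with CCCP, DHA and combination. IFI16, a nuclear DNA sensor, was 1.85-fold (1.72 to 1.98) higher with the combination. ZC3HAV1, an antiviral RNA-binding protein, was 1.57-fold (1.41 to 1.76) lower with CCCP. PML, which builds nuclear bodies, was 1.5-fold (1.40 to 1.60) lower with the combination, and SP100 of the same bodies was 1.42-fold (1.32 to 1.52) higher. PLSCR1, a phospholipid scramblase, was 1.46-fold (1.34 to 1.58) higher and DDX60L 1.48-fold (1.34 to 1.64) higher with it.

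Of 17 genes that respond chiefly to interferon gamma, 5 were measured, and CXCL9, CXCL10, CXCL11 and IDO1, named after their values were seen, had no read. GBP2, a guanylate-binding protein, stood at 2.46 FPKM in control cells, 4.56 under CCCP, 1.5 under DHA and 0.849 under the combination. It was 1.86-fold (1.60 to 2.15) higher with CCCP, 1.64-fold (1.35 to 2.0) lower with DHA and 2.89-fold (2.28 to 3.69) lower with the combination. GBP1 of the same family stood at 5.34, 8.43, 4.24 and 3.63 FPKM, 1.58-fold (1.41 to 1.77) higher with CCCP and 1.47-fold (1.27 to 1.70) lower with the combination. Both were highest with CCCP and lowest with the combination, as IFI6 was. LY6E of the type I list, IFI27L1, IFI27L2 and the melanocyte marker PMEL had the same highest and lowest library. The share of all genes with this order was not counted. WARS, a tryptophanyl-tRNA synthetase that the amino acid stress response also controls, was 2.60-fold (2.42 to 2.80) higher with DHA and 5.54-fold (5.19 to 5.91) higher with the combination. APOL6 was 2.56-fold (2.23 to 2.94) higher with the combination, while GBP3 ranged from 7.05 to 8.26 FPKM.

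Over these 7 lists, 66 genes that are not members were measured. With the combination 3 were at least 2-fold higher (4.52% of all genes were) and 2 lower (5.44%). With CCCP none passed 2-fold (5.53% of all genes did), and with DHA 1 did, WARS (3.87%). None of the 66 passed an adjusted p of 0.05 in the additive limma fit, and at an unadjusted limma p under 0.05 there were 8 for CCCP (12.1%, against 14.5% of all genes) and 7 for DHA (10.6%, against 12.1%).

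**Figure D5:**
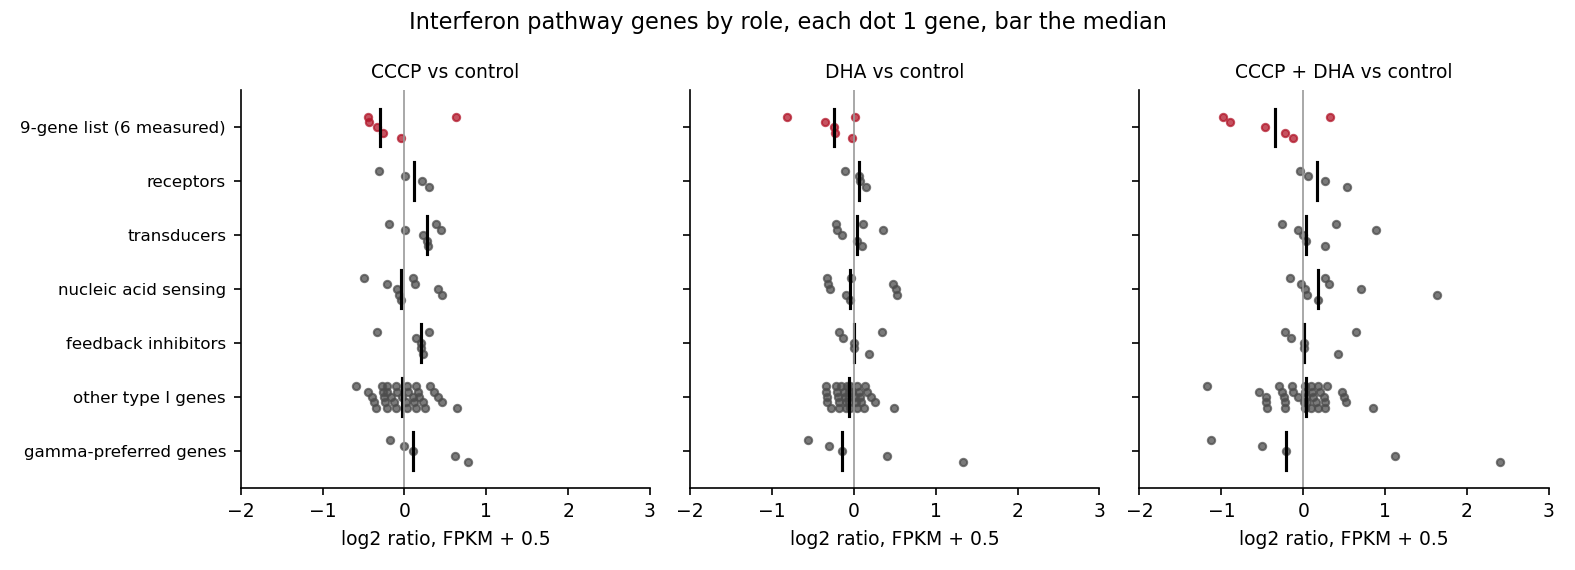
Log2 ratios of FPKM + 0.5 to control (x axis) for measured genes of the interferon pathway by role, each dot 1 gene and each bar a median. The members (6 measured) have medians of -0.30, -0.24 and -0.34 with CCCP, DHA and combination, and the 35 other type I genes have medians of -0.03, -0.06 and 0.03.

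For each measured member the 3 genes with the most similar pattern were taken from 6760 genes that average 5 FPKM or more. Likeness was the Euclidean distance over the 3 log2 ratios to control, which share that library. IFI6 lay nearest to CDKN2D, ACKR3 and ASPM, at distances of 0.165 to 0.254. ISG15 lay nearest to MT-TL1, HMGCS1 and KRT81, at 0.137 to 0.253. IFIT1 lay nearest to EBP, BMP1 and H3F3AP4, at 0.0607 to 0.0892, with EBP at 11.8 FPKM in control and 5.82 under the combination. IFIT2 lay nearest to AP3B1, TMEM165 and USP40, and IFIT3 to ACBD5, ATXN1L and AC093673.1. IRF1 lay nearest to SRPRB, LTV1 and NUDT4. None of these genes is on the interferon lists. The share of the 6760 candidates on those lists was not counted, so no conclusion is drawn from this. Listed genes that average under 5 FPKM, such as OAS3 and GBP2, could not be drawn.

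Reads shared with other genes limit some members more than others. IFIT2 shares 10.3% of its exon bases with other genes, mostly with AL353751.1 on its own strand, which had at most 17 reads per library. ISG15, MX1 and OAS1 share at most 3.83%, and IFI6, IFI27, IFIT1 and IFIT3 share none. Of all 50-base stretches in the transcripts of a member, at most 2.48% occur in the same direction in transcripts of another gene, except for IFIT2 at 7.49%. The opposite direction was not searched, so these shares leave out overlaps such as the 22% of IRF1 exon bases shared with C5orf56.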

How the data were processed

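Per the file headers, the values that the authors deposited are FPKM, 1 per gene and library. The labels' protocols name an Illumina TruSeq RNA kit and 1 ug of input. How reads were aligned and counted, and on which build, is not given in the sources used here. Each of the 58735 identifiers was found in GENCODE 29 (GRCh38), which gave coordinates and exon lengths.

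Reads were recovered from FPKM and exon length, and 100% of the values above 0 came out whole (tolerance 0.01 reads). They served for totals and counting intervals, and FPKM were used unscaled. Low genes were dropped unless 1 library reached 1 FPKM, and 0.5 was added before log2. The size rule was 2-fold. Additive terms were tested with limma 3.58.1 (R 4.3.3) and Benjamini-Hochberg adjustment, after a check in which simulated data were tested. Python 3.11.15 did the rest, with scipy 1.17.1 for intervals, pandas 2.3.3, numpy 2.4.6 and, for plots, matplotlib 3.10.9.

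The 9 genes and all lists were chosen with earlier results of these data known. Named were the members, any gene of the ligand, receptor, transducer, sensing, feedback and near-relative lists, up to 8 genes of either other interferon list by largest log2 ratio to control and an average of 1 FPKM or more, the highest leukocyte marker, any melanocyte marker and the 3 nearest patterns per member. The short-lived list, limma-voom and ratios without a pseudocount were chosen after seeing the data. Alternatives were pseudocounts of 0.1 and 1, other filters, size rules and scalings, and limma without trend. A few genes of the lists are not reported here.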

Additional observations from a re-analysis of the deposited data

Results flagged for a closer look

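For 3 of the 6 measured members a compound went with a difference in one direction alone and in the other direction on top of the second compound. Both counting intervals excluded 1. The share of all genes that turn in this way was not counted, so the 3 cannot be set against it. In the comparisons used, 35.3 to 56.9% of all genes had an interval that excluded 1. Other turns of sign, such as ISG15 and IFIT3 for CCCP, had an interval that included 1 and are not counted. IFI6 was higher with CCCP alone and lower where CCCP was added to DHA, a difference of -1.51 log2 units. IRF1 was lower with either compound alone and higher where that compound was added to the other, a difference of 0.99 for CCCP and of 0.99 for DHA, which is 1 quantity from the same 4 libraries. IFIT3 was lower with DHA alone and higher where DHA was added to CCCP, a difference of 0.56. With 1 library per group these differences were not tested.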

How the results depend on the processing

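No paired analysis was possible because each group has 1 library. Fits without 1 library were not run, since no residual degree of freedom would remain. All 150 alternative log2 ratios of the measured members, 180 list medians and 30 departures moved by less than the spread set by their counting intervals, although IFIT1 against control with the combination, and IRF1 in the combination against CCCP and in its departure, crossed 2-fold as given above. Rescaling to equal totals moved the median of all genes most for CCCP, by a shift of -0.09.

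Counts past 2-fold depended on low genes and on the size rule. For CCCP, 756 genes became 1142 and 440 with pseudocounts of 0.1 and 1, 1152 without a filter, 106 at a mean of at least 5 FPKM, and 1956 and 120 at 1.5-fold and 4-fold. For DHA, 529 became 828, 326, 887, 56, 1174 and 98 in that order. At a mean of at least 5 FPKM, at 1.5-fold and at 4-fold, the combination against control (1362) gave 494, 3259 and 210, against CCCP (1149) 317, 2911 and 197, and against DHA (944) 252, 2328 and 148. The last gave 619 with a pseudocount of 1 and 1423 without a filter.

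In the additive fit, limma without trend called 0 genes for either compound, with 1496 for CCCP and 1126 for DHA at an unadjusted p under 0.05. For CCCP, 13 genes became 21 and 24 with pseudocounts of 0.1 and 1. At a mean of at least 5 FPKM, with equal totals and with voom they became 89, 519 and 685, and for DHA 14 became 34, 409 and 533. No member passed in any of these limma fits, with adjusted p from 0.092 to 0.982. The CCCP term of IFI6 was -0.12 and turned to 0.043 with voom. In the main fit it combines opposite log2 ratios, 0.63 for CCCP alone and -0.88 for CCCP on top of DHA. The cause of the turn was not tested. Depth limits IFI27, MX1 and OAS1, with 57, 86 and 1 reads in all.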
